A study of Homo sapiens with 60 samples.

Results

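The genes of HLA class I antigen presentation followed here are HLA-B, HLA-C, HLA-E, B2M, TAP1, TAP2, TAPBP, PSMB8 and PSMB9. They were chosen by symbol, after mapping the Ensembl identifiers of the table, and make up 9 of its 60675 genes. Class I molecules are heavy chains paired with beta-2-microglobulin that hold short peptides at the cell surface, where cytotoxic T cells and natural killer cells read them. The peptides are cut in the cytosol by the proteasome, in which the immunoproteasome subunits can replace the standard catalytic subunits. They are then carried into the endoplasmic reticulum by the TAP1 and TAP2 transporter and loaded with the help of tapasin, the product of TAPBP. In many epithelial cells interferons raise the expression of these genes, and colorectal tumours are known for losing class I at the cell surface.

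The cells were HT29, an established line from a human colorectal adenocarcinoma, so every library came from 1 line. Bulk RNA was sequenced from 60 libraries in 22 groups after 24 h of treatment. The 3 vehicle libraries received dimethyl sulfoxide, at 0.1% in the sample labels and at 2% in the design text. Water extracts were given at nominal doses of 500, 100 and 20 µg/mL, but the design text states that extracts whose 20% inhibitory concentration lay under the top dose were given at that concentration and at dilutions of it. Extracts of the formulae Samul-tang and Sagunja-tang, each made from several herbs, had 3 libraries at each dose. So did the single herbs Astragali Radix, Cinnamomi Cortex, Rehmanniae Radix Preparata and Cnidii Rhizoma, while Paeoniae Radix had 1. The labels do not say whether replicates were separate cultures, and the p-values therefore speak only of the spread among these libraries, possibly a technical one.

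Of the 9 members, B2M lies on chromosome 15 (44711487-44718877, plus strand) and the others in the major histocompatibility complex on chromosome 6, by GENCODE 29 on GRCh38. HLA-C lies at 31268749-31272130, HLA-B at 31269491-31357188, TAP2 at 32821833-32838780, PSMB8 at 32840717-32844703, TAP1 at 32845209-32853978 and TAPBP at 33299694-33314387, all on the minus strand. HLA-E lies at 30489467-30494205 and PSMB9 at 32844136-32859585, both on the plus strand. The gene model of PSMB9 covers all 8770 bases of TAP1 on the opposite strand and 568 bases of PSMB8, and that of HLA-B covers 2640 bases of HLA-C on the same strand. A second gene model, AL669918.1, covers all 16948 bases of TAP2 on its strand. The strand setting of the counting is not given in the sources used here, so counts of such pairs may not be fully separate. The annotated transcripts of HLA-B, HLA-C and HLA-E shared none of their runs of 100 bases, the read length. Those of PSMB8 and PSMB9 shared 40, or 1.22% of the runs of PSMB8 and 1.26% of those of PSMB9. These counts concern reference transcripts, and the sequences carried by HT29 were not compared with them.

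RefSeq promoter windows on GRCh38.p14, from 250 bases before to 50 after a start site, were found for 8 of the 9 members. They are shown because expression of this gene set is known to depend on interferon and NF-kB signalling. The 6 printed here, chosen after the values were seen, are the 250 bases before the start of the 5 members called in at least 2 comparisons with the vehicle and of HLA-C, whose level went with that of B2M. They read 5′ to 3′ on the gene's strand, and for the members with 2 windows the first is printed. Capitals mark matches to the IRF core AAANNGAAA, searched on both strands, or to the NF-kB consensus. The windows are B2M at chr15:44711267-44711516 on the plus strand, and on the minus strand HLA-C at chr6:31272093-31272342, TAP1 at chr6:32853705-32853954, TAP2 at chr6:32838740-32838989, TAPBP at chr6:33314079-33314328 and PSMB8 at chr6:32844680-32844929.
B2M: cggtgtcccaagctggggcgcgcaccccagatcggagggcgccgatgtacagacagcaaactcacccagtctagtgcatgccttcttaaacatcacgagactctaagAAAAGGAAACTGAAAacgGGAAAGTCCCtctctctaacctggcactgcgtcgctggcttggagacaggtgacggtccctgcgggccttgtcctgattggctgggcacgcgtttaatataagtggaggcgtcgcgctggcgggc
HLA-C: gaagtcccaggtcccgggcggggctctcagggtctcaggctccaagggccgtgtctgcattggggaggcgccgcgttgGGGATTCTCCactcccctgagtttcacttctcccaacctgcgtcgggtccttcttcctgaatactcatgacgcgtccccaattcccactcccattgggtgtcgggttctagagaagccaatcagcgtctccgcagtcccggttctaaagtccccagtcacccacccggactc
TAP1: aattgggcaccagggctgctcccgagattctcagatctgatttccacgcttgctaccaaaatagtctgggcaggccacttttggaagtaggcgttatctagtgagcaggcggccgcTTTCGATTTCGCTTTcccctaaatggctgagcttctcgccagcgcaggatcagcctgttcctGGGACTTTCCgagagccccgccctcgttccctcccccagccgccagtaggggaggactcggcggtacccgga
TAP2: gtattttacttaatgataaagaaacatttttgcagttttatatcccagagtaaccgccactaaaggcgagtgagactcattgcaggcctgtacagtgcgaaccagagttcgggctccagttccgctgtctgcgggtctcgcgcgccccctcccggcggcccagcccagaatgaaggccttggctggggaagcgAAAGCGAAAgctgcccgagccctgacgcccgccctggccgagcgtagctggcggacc
TAPBP: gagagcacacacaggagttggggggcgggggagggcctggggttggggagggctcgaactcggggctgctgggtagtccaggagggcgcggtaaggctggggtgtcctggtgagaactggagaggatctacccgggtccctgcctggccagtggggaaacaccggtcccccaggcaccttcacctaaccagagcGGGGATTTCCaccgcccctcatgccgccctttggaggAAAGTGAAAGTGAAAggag
PSMB8: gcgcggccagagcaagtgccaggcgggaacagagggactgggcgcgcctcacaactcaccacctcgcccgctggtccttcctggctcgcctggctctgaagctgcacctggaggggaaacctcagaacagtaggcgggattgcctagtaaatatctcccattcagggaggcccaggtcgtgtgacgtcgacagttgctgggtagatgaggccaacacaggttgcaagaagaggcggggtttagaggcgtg

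The B2M window held 2 overlapping matches to the IRF core, from -143 to -129 relative to the start, and 1 to the NF-kB consensus from -125 to -116. TAP1 held 2 overlapping IRF core matches from -134 to -120 and an NF-kB match from -72 to -63, with a second NF-kB match past its start. TAP2 held 1 IRF core match, from -57 to -49. TAPBP held 2 overlapping IRF core matches from -19 to -5 and an NF-kB match from -56 to -47. HLA-C held 1 NF-kB match, from -172 to -163. The first PSMB8 window held no match. Of the windows not printed, that of HLA-B held 2 overlapping NF-kB matches, the second windows of TAP1 and of PSMB8 each held 1 match to the STAT element TTCNNNGAA, and the second PSMB8 window also held 1 to the IRF core. PSMB9, whose start lies 488 bases from that of TAP1 on the opposite strand, had no match in its window. Among 34943 promoter windows of the same length, 10.5% held the IRF core, 7.66% the STAT element and 11.3% the NF-kB consensus. A match describes letters and not binding, and a window without a match to these exact letters may still hold a related element.

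Library totals ran from 20459346 to 36253747 counts. An earlier account of these data split 57 of the libraries into 2 sets, written here as starts of the sample codes. The first holds 27 libraries, namely the vehicle, all of Rehmanniae Radix Preparata and Cnidii Rhizoma, and replicate 1 of Astragali Radix and of Cinnamomi Cortex. The second holds 30, the other replicates of those last 2 extracts and both formulae. The sets were recognised on the first principal component of all genes, which held 15.7% of the variance. No label names them, and every sample title carries the same batch label, BatchB. Replicate 2 of Cinnamomi Cortex at 500 µg/mL lay among the first set on that component, although its code was placed in the second. Mitochondrial genes took 8.89 to 14.6% of counts in the first set and 7.09 to 11.9% in the second. The epithelial markers EPCAM, KRT8, KRT18, KRT19, KRT20, CDH1 and VIL1 were high in all 60 libraries, with a median of 530 CPM (counts scaled to a common library total) for EPCAM, and CDX2 and CDH17 had medians of 4.52 CPM. Of the leukocyte markers, CD2 and MS4A1 had no count in any library and PTPRC at most 3. The 9 leukocyte markers summed to 2.84 to 4.21 CPM in the first set and 2.38 to 4.49 in the second, mostly CD14.

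All 9 members passed the filter on low counts. Per kilobase of exon, their order in the vehicle was B2M at 63.3 CPM per kilobase, TAPBP at 38.3, HLA-C at 20.6, HLA-E at 18.6, TAP2 at 6.74, PSMB8 at 1.79, TAP1 at 1.39, HLA-B at 0.734 and PSMB9 at 0.170. The length was the union of exons over all annotated transcripts, 6079 bases for B2M and 2507 for HLA-C. Ratios between members therefore depend on the annotation too. On this scale HLA-B, a classical heavy chain, was far below HLA-C, the other classical heavy chain followed, and TAP1 was below its partner TAP2. Whether reads from the HLA alleles of HT29 were counted equally well for both heavy chains was not tested. In CPM, which is not divided by length, the vehicle levels were 385 ± 5.24 (SD, n = 3) for B2M, 194 ± 9.85 for TAPBP, 51.8 ± 1.86 for HLA-C and 55.2 ± 1.04 for HLA-E. TAP2 stood at 43.1 ± 2.02, TAP1 at 6.66 ± 0.707, PSMB8 at 5.35 ± 0.548, HLA-B at 2.24 ± 0.212 and PSMB9 at 0.522 ± 0.225. PSMB9 rested on 8 to 15 counts in the vehicle libraries and on as few as 3 elsewhere, so modest changes in it were not detectable at this depth. Over the 19 replicated groups the mean level of TAP2 ran only from 42.3 CPM (Cinnamomi Cortex at 500 µg/mL) to 53.7 (Sagunja-tang at 500), and neighbours in that order differed by less than the larger of their SDs. In bulk RNA a smaller share of cells expressing a gene and less RNA per cell cannot be told apart.

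**Figure D1:**
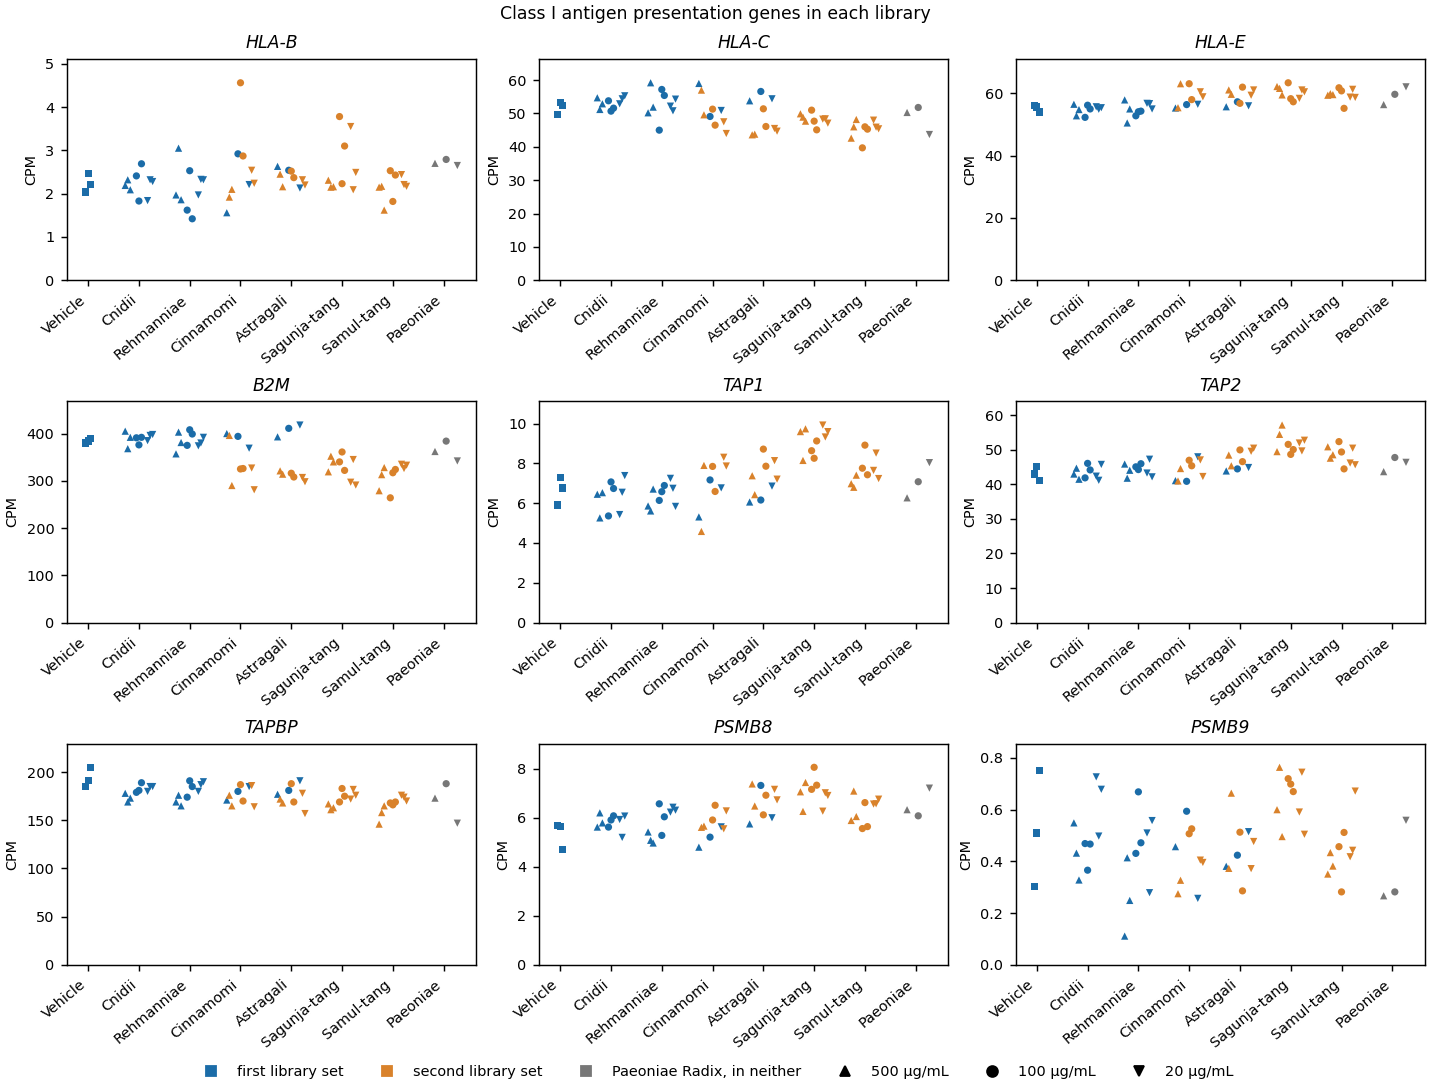
Level of each member in each of the 60 libraries, in CPM on linear axes that start at 0, by extract (x axis), with colour for the library set and marker shape for the dose. B2M fills 357 to 418 CPM in the first set and, apart from 1 library at 396, 264 to 361 in the second, and the 9 Sagunja-tang libraries hold the highest TAP1 level, 9.93 CPM.

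B2M divided by library set more than by extract. B2M, the light chain shared by all class I molecules, had a median of 392 CPM in the 27 first-set libraries (lowest 357, highest 418). In the 30 second-set libraries its median was 321 CPM, with a lowest value of 264 and a highest of 396. The value of 396 belonged to replicate 2 of Cinnamomi Cortex at 500 µg/mL, and without it the second set reached 361 CPM, so that the sets overlapped only between 357 and 361. HLA-C moved the same way, with medians of 52.9 CPM (45.0 to 59.2) in the first set and 46.8 CPM (39.7 to 57) in the second, and these ranges overlapped widely.

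Other members moved the opposite way. HLA-E, a heavy chain that natural killer cells read, had medians of 55.4 CPM (50.5 to 57.9) in the first set and 59.8 CPM (55.2 to 63.4) in the second. TAP1 had medians of 6.55 CPM (5.26 to 7.39) and 7.88 CPM (4.58 to 9.93), and TAP2 of 44.1 CPM (40.9 to 48.0) and 49.1 CPM (41.0 to 57.2). For PSMB8, an immunoproteasome subunit, the medians were 5.75 CPM (4.72 to 7.32) and 6.57 CPM (5.55 to 8.06). TAPBP was lower in the second set, with medians of 181 and 170 CPM, and HLA-B (2.21 and 2.27 CPM) and PSMB9 (0.467 and 0.487 CPM) had nearly equal medians.

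Cinnamomi Cortex and Astragali Radix are the only extracts with libraries in both sets, at 6 combinations of extract and dose. B2M was highest in the first-set library in 6 of these 6 groups. HLA-C was highest there in 5, and HLA-E was lowest there in 5, TAP1, TAP2 and PSMB8 each in 4. In a fit with a term for the set, these 6 groups give its size: the second set minus the first was -0.32 ± 0.05 on the log2 scale (SE) for B2M, 0.80 of the first-set level, and -0.18 ± 0.04 for HLA-C. For TAP1 the difference was 0.21 ± 0.08, for PSMB8 0.14 ± 0.06, for HLA-E 0.09 ± 0.03, for TAP2 0.08 ± 0.04 and for TAPBP -0.06 ± 0.03. Of all genes tested, 89.9% had a smaller set difference than B2M and 77.5% a smaller one than TAP1, while 39.7% had a smaller one than TAP2. The sets were recognised on these same libraries, so these values are a description without a test. The vehicle lies wholly in the first set and the formulae wholly in the second, so any comparison of a formula with the vehicle also compares the sets.

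**Figure D2:**
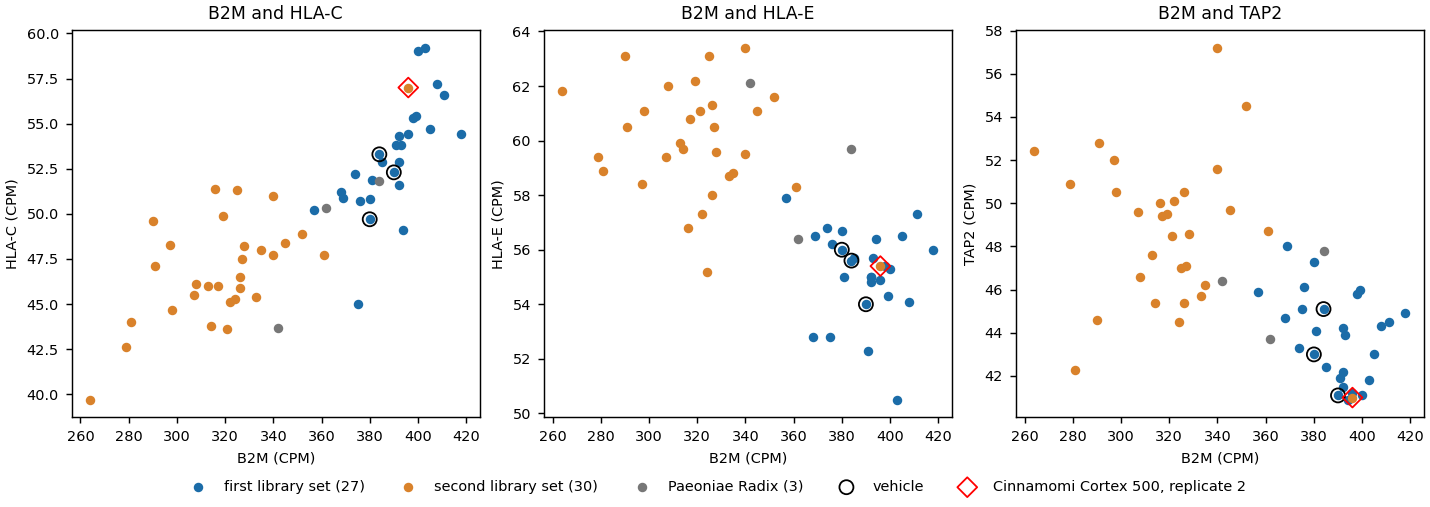
B2M level (x axis, CPM) against HLA-C, HLA-E and TAP2 (y axes, CPM, not starting at 0), 1 point per library, coloured by library set, with the vehicle libraries ringed. The sets part at about 360 CPM of B2M, and the library in the diamond, replicate 2 of Cinnamomi Cortex at 500 µg/mL, lies with the first set at 396 CPM.

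Before group and set means were removed, members that moved together did so in opposite blocks. Over the 57 libraries the log2 levels of B2M and HLA-C had a Pearson correlation of 0.84, B2M and TAPBP of 0.60, and TAP1 and TAP2 of 0.75. B2M and HLA-E had a correlation of -0.74, B2M and TAP2 of -0.63 and B2M and TAP1 of -0.61. After the mean of each combination of group and set was removed, over the 51 libraries with a partner, B2M and HLA-C still had a correlation of 0.68 and B2M and TAPBP of 0.54, while TAP1 and TAP2 had 0.42, B2M and HLA-E -0.38 and B2M and TAP1 -0.30. Other pairs weakened more. HLA-C and TAP1 went from -0.50 to -0.02 and B2M and PSMB8 from -0.40 to -0.05. TAP2 and PSMB8 went from 0.61 to 0.09 and TAP1 and PSMB8 from 0.51 to -0.00. All these correlations are descriptions across libraries that share a depth, a set and a scaling. HLA-B had no correlation above 0.30 with any other member over the 57 libraries.

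Whether the single herbs changed the members was asked first, since Cnidii Rhizoma and Rehmanniae Radix Preparata share the library set of the vehicle. No member was called (adjusted p under 0.05) with Cnidii Rhizoma at 500, 100 or 20 µg/mL, where 1.38%, 0.147% and 0.293% of the 16356 genes tested were called. The numbers of members with an unadjusted p under 0.05 were 1, 0 and 0, and DESeq2 called none. No member was called with Rehmanniae Radix Preparata, where 0.593%, 0.202% and 0.440% of genes were called, and 2, 0 and 1 members had an unadjusted p under 0.05. DESeq2 called 1 there, TAPBP at 500 µg/mL. TAPBP had the lowest adjusted p in 5 of these 6 comparisons. Its values at 500 µg/mL of Rehmanniae Radix Preparata were 169, 176 and 165 CPM against 185, 191 and 205 in the vehicle. The 3 treated libraries lay below all 3 vehicle libraries, a difference of -0.19 ± 0.05 (log2, SE) that missed the threshold (edgeR, adjusted p = 0.074) and passed it with first-set libraries alone (adjusted p = 0.028).

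B2M under these same extracts stayed near the vehicle. With Cnidii Rhizoma it was 405, 368 and 392 CPM at 500 µg/mL, and its 9 libraries over all doses had a median of 392 CPM. With Rehmanniae Radix Preparata the median was 381 CPM and the range 357 to 408. Vehicle libraries, at 380, 384 and 390 CPM, lay inside both ranges. The estimated differences from the vehicle ran from -0.02 to 0.04 log2, each with an SE of 0.11.

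With Astragali Radix no member was called at 500, 100 or 20 µg/mL, where 3.61%, 2.43% and 1.39% of genes were. There were 2, 2 and 3 members with an unadjusted p under 0.05, and DESeq2 called 1, TAPBP at 500 µg/mL. PSMB8 lay above all 3 vehicle libraries in 9 of 9 Astragali Radix libraries, but so did 6 of 9 with Cnidii Rhizoma and 5 of 9 with Rehmanniae Radix Preparata. At 100 µg/mL its values were 7.32, 6.12 and 6.92 CPM against 5.68, 5.65 and 4.72 in the vehicle. These groups did not overlap, and the difference was 0.34 ± 0.10 log2 (edgeR, adjusted p = 0.065). Leaving out replicate 1, the first-set library at each dose, gave 8 calls over the 3 doses, which then compared second-set libraries alone with the vehicle. The share of all genes called in that fit is not given here, so these calls have no background beside them. B2M was 393, 411 and 418 CPM in the first-set libraries at 500, 100 and 20 µg/mL and 298 to 321 in the other 6.

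With Cinnamomi Cortex 1 member was called lower at 500 µg/mL, TAPBP, where 12.7% of genes were called. TAPBP was 171, 176 and 165 CPM, below the 185, 191 and 205 of the vehicle without overlap, and its difference was -0.18 ± 0.05 log2, or 0.88 of the vehicle level (adjusted p = 0.01). The call did not hold with the set term (-0.14, adjusted p = 0.062), unless replicate 2 at that dose was moved to the first set, where it lies on the principal component (-0.16, adjusted p = 0.016), nor without replicate 3 of the extract (adjusted p = 0.059) or of the vehicle (adjusted p = 0.11). At 100 µg/mL 1 member was called higher, HLA-B, where 7.84% of genes were called. HLA-B was 2.92, 4.56 and 2.87 CPM against 2.04, 2.46 and 2.21, a 1.54-fold difference (0.63 ± 0.20 log2, adjusted p = 0.04), on 64 to 108 counts against 44 to 58. The groups did not overlap, but replicate 2 alone gave the value of 4.56, and without replicate 2 the difference was 0.37 (adjusted p = 0.43). It also missed the threshold without vehicle replicate 1, 2 or 3 (adjusted p = 0.12, 0.068 and 0.09). With the set term it was 0.56 (adjusted p = 0.2). At 20 µg/mL no member was called, where 1.69% of genes were, 2 had an unadjusted p under 0.05, and the lowest adjusted p, 0.21, was that of TAPBP. Without the filter on low counts B2M was called lower at 20 µg/mL (-0.24, adjusted p = 9.7e-04).

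HLA-C was the member that the set term brought out with Cinnamomi Cortex. At 500 µg/mL it was 59.0, 57 and 49.6 CPM, against 49.7, 53.3 and 52.3 in the vehicle, so the groups overlapped. Its difference was 0.09 ± 0.08 log2 without the term (adjusted p = 0.5) and 0.22 with it (adjusted p = 0.036). With replicate 2, the library at 57 CPM, moved to the first set, the difference was 0.15 and no longer called (adjusted p = 0.11). B2M at this dose was 400, 396 and 290 CPM, the only group of the extract in which a second-set library reached the first-set level.

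Sagunja-tang gave the most calls among the members. At 500 µg/mL 4 members were called higher, TAP1, TAP2, PSMB8 and HLA-E, and 1 lower, TAPBP, where 19.9% of all genes were called. At 100 µg/mL TAP1, TAP2 and PSMB8 were called higher and none lower, where 16.3% of genes were called, and at 20 µg/mL the same 3 were called higher and none lower, where 18.1% were. The median difference over the 9 members was 0.14, 0.22 and 0.26 log2 at these doses, beside medians of 0.00, 0.01 and 0.00 over all genes. With the set term none of the 11 calls remained, and 2.08%, 0.611% and 0.605% of genes were called.

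TAP1, the first transporter subunit, was 9.60, 8.15 and 9.74 CPM at 500 µg/mL of Sagunja-tang, 8.64, 8.26 and 9.13 at 100 and 9.93, 9.33 and 9.60 at 20. The vehicle libraries held 5.91, 7.31 and 6.77 CPM. All 9 Sagunja-tang libraries lay above all vehicle libraries, and the 500 and 20 µg/mL groups overlapped. The differences were 0.46 ± 0.13, 0.38 ± 0.13 and 0.53 ± 0.13 log2 (adjusted p = 0.011, 0.04 and 0.0053). The set term brought them to 0.25, 0.18 and 0.33 (adjusted p = 0.44, 0.71 and 0.47). The call at 20 µg/mL held on leaving out any 1 replicate. At 500 it was lost without Sagunja-tang replicate 3 or vehicle replicate 1 (adjusted p = 0.067 and 0.068), and at 100 without any Sagunja-tang replicate or without vehicle replicate 1 or 3 (adjusted p = 0.052 to 0.17). Among the 21 second-set libraries of other treatments TAP1 ran from 4.58 to 8.92 CPM with a median of 7.65, and it ran from 8.15 to 9.93 in Sagunja-tang.

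TAP2, its partner, was 49.5, 54.5 and 57.2 CPM at 500 µg/mL, 51.6, 48.7 and 50.1 at 100 and 52.0, 49.7 and 52.8 at 20, against 43.0, 45.1 and 41.1 in the vehicle. Again 9 of 9 libraries lay above the vehicle. The differences were 0.32 ± 0.06, 0.22 ± 0.06 and 0.26 ± 0.06 log2, or 1.25-, 1.16- and 1.19-fold (adjusted p = 4.4e-04, 0.015 and 0.005). They were 0.24, 0.14 and 0.17 with the set term (adjusted p = 0.054, 0.5 and 0.41). The calls at 500 and 20 µg/mL held on leaving out any 1 replicate, and that at 100 was lost without Sagunja-tang replicate 1 or 3 or vehicle replicate 3 (adjusted p = 0.058, 0.056 and 0.11).

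PSMB8 was 7.06, 6.26 and 7.44 CPM at 500 µg/mL of Sagunja-tang, 7.16, 8.06 and 7.33 at 100 and 6.27, 7.02 and 6.91 at 20. These 9 values lay above the vehicle values of 5.68, 5.65 and 4.72 CPM. The differences were 0.36 ± 0.10, 0.49 ± 0.10 and 0.33 ± 0.10 log2, or 1.29-, 1.40- and 1.25-fold (adjusted p = 0.01, 0.0015 and 0.023). Fitted with the set term they were 0.23, 0.35 and 0.19 (adjusted p = 0.38, 0.19 and 0.66). The call at 100 µg/mL held on leaving out any 1 replicate. That at 500 was lost without Sagunja-tang replicate 3 or vehicle replicate 3 (adjusted p = 0.081 and 0.1), and that at 20 without Sagunja-tang replicate 2 or 3 or vehicle replicate 3 (adjusted p = 0.06, 0.089 and 0.14). PSMB9, the other immunoproteasome subunit followed, was 0.496 to 0.764 CPM in the 9 libraries and overlapped the vehicle range of 0.303 to 0.753. Its differences of 0.29, 0.45 and 0.27 log2, each with an SE of 0.31, did not pass the test (adjusted p = 0.56, 0.32 and 0.59).

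HLA-E was called at 500 µg/mL alone. It was 62.2, 61.6 and 59.5 CPM there against 56.0, 55.6 and 54.0 in the vehicle, a 1.11-fold difference without overlap (0.14 ± 0.05 log2, adjusted p = 0.04). Its differences at 100 and 20 µg/mL were 0.11 and 0.12, and that at 500 was 0.05 with the set term (adjusted p = 0.73). The call was also lost on leaving out any Sagunja-tang or vehicle replicate (adjusted p = 0.054 to 0.16). TAPBP at 500 µg/mL was 167, 161 and 163 CPM, below all vehicle libraries, with a difference of -0.24 ± 0.05 log2 (adjusted p = 8.3e-04), and -0.18 with the set term (adjusted p = 0.068). HLA-C and B2M were not called at any dose, although B2M lay below the vehicle in 9 of 9 libraries, at 291 to 361 CPM. At 20 µg/mL the B2M difference was -0.31 ± 0.11 log2 (adjusted p = 0.056), and 0.02 with the set term (adjusted p = 0.98). In a fit of the vehicle and Sagunja-tang alone B2M was called lower at 500, 100 and 20 µg/mL (adjusted p = 0.022, 0.042 and 0.0013). That fit also called TAPBP lower at 100 and 20 µg/mL (-0.14 and -0.13, adjusted p = 0.034 and 0.039), as did DESeq2 (adjusted p = 0.034 and 0.038). At 20 µg/mL B2M was called lower by DESeq2 too (adjusted p = 0.039). In edgeR it was called there with a replicate block (adjusted p = 0.048) and without Sagunja-tang replicate 2 (adjusted p = 0.037). Without the filter on low counts edgeR called B2M lower at 500, 100 and 20 µg/mL (adjusted p = 0.0054, 0.018 and 5.5e-07).

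Counted as calls against the vehicle, Samul-tang had fewer members higher and more lower than Sagunja-tang. B2M and TAPBP nevertheless lay below every vehicle library in 9 of 9 libraries of each formula. Set against each other at matched doses, as described below, the formulae gave no call. At 500 µg/mL of Samul-tang TAP2 was called higher and B2M and TAPBP lower, where 18.1% of genes were called. At 100 µg/mL TAP2 was called higher and B2M, HLA-C and TAPBP lower, where 21.6% were, and at 20 µg/mL PSMB8 was called higher and TAPBP lower, where 10.5% were. Member medians were -0.18, 0.01 and 0.03 log2. With the set term 1 of the 9 calls remained, that of TAPBP at 500 µg/mL, and 1.17%, 0.550% and 0.367% of genes were called.

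B2M was 279, 313 and 328 CPM at 500 µg/mL of Samul-tang, 264, 317 and 324 at 100 and 335, 326 and 333 at 20, all below the vehicle libraries at 380, 384 and 390. The differences at 500 and 100 were -0.33 ± 0.11 and -0.35 ± 0.11 log2, or 0.80 and 0.78 of the vehicle level (adjusted p = 0.042 and 0.027). The set term left -0.00 and -0.02 (adjusted p = 1 and 0.96), and 0.04 and 0.01 with replicate 2 of Cinnamomi Cortex at 500 µg/mL moved to the first set (adjusted p = 0.89 and 0.98). HLA-C at 100 µg/mL was 39.7, 46.0 and 45.3 CPM against 49.7, 53.3 and 52.3, a difference of -0.24 ± 0.08 log2 (adjusted p = 0.027) that was -0.06 with the set term (adjusted p = 0.84). In both genes the lowest library was replicate 1 at 100 µg/mL, and without replicate 1 neither call at that dose held (adjusted p = 0.17 for each). Nor did they hold without vehicle replicate 2 (adjusted p = 0.06 for B2M and 0.091 for HLA-C) or vehicle replicate 3 (adjusted p = 0.081 for each). The B2M call at 500 µg/mL was lost without Samul-tang replicate 1 or 2 or any vehicle replicate (adjusted p = 0.065 to 0.18).

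TAPBP, whose product tapasin holds empty class I molecules next to the transporter, gave the lowest adjusted p of the set with Samul-tang. It was 146, 158 and 165 CPM at 500 µg/mL, 168, 166 and 169 at 100 and 176, 174 and 170 at 20. All 9 values lay below the vehicle values of 185, 191 and 205 CPM. The differences were -0.31 ± 0.05, -0.21 ± 0.05 and -0.16 ± 0.05 log2, or 0.81, 0.87 and 0.89 of the vehicle level (adjusted p = 5.3e-05, 0.0037 and 0.035). The set term brought them to -0.25, -0.15 and -0.10 (adjusted p = 0.012, 0.28 and 0.74). The calls at 500 and 100 µg/mL held on leaving out any 1 replicate, and that at 20 was lost without Samul-tang replicate 2 or 3 or vehicle replicate 2 or 3 (adjusted p = 0.078 to 0.22). Over all extracts and doses the TAPBP estimate lay below 0 in 18 of 18 comparisons, which share the same 3 vehicle libraries, and it was called in 5.

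TAP2 under Samul-tang was 50.9, 47.6 and 48.6 CPM at 500 µg/mL and 52.4, 49.4 and 44.5 at 100, against 43.0, 45.1 and 41.1 in the vehicle. The groups overlapped at 100 and not at 500. The differences were 0.19 ± 0.06 and 0.18 ± 0.06 log2 (adjusted p = 0.032 and 0.036), and 0.10 at both doses with the set term (adjusted p = 0.56 and 0.66). PSMB8 at 20 µg/mL was 6.56, 6.57 and 6.76 CPM, above the vehicle without overlap, at 0.30 ± 0.10 log2 (adjusted p = 0.048), and 0.16 with the set term (adjusted p = 0.84). These 3 calls depended on single replicates too. TAP2 at 500 was lost without Samul-tang replicate 1 or vehicle replicate 1 or 3 (adjusted p = 0.064 to 0.17) and at 100 without Samul-tang replicate 1 or 2 or vehicle replicate 1 or 3 (adjusted p = 0.073 to 0.26). PSMB8 at 20 was lost without any Samul-tang replicate or without vehicle replicate 2 or 3 (adjusted p = 0.079 to 0.24).

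**Figure D3:**
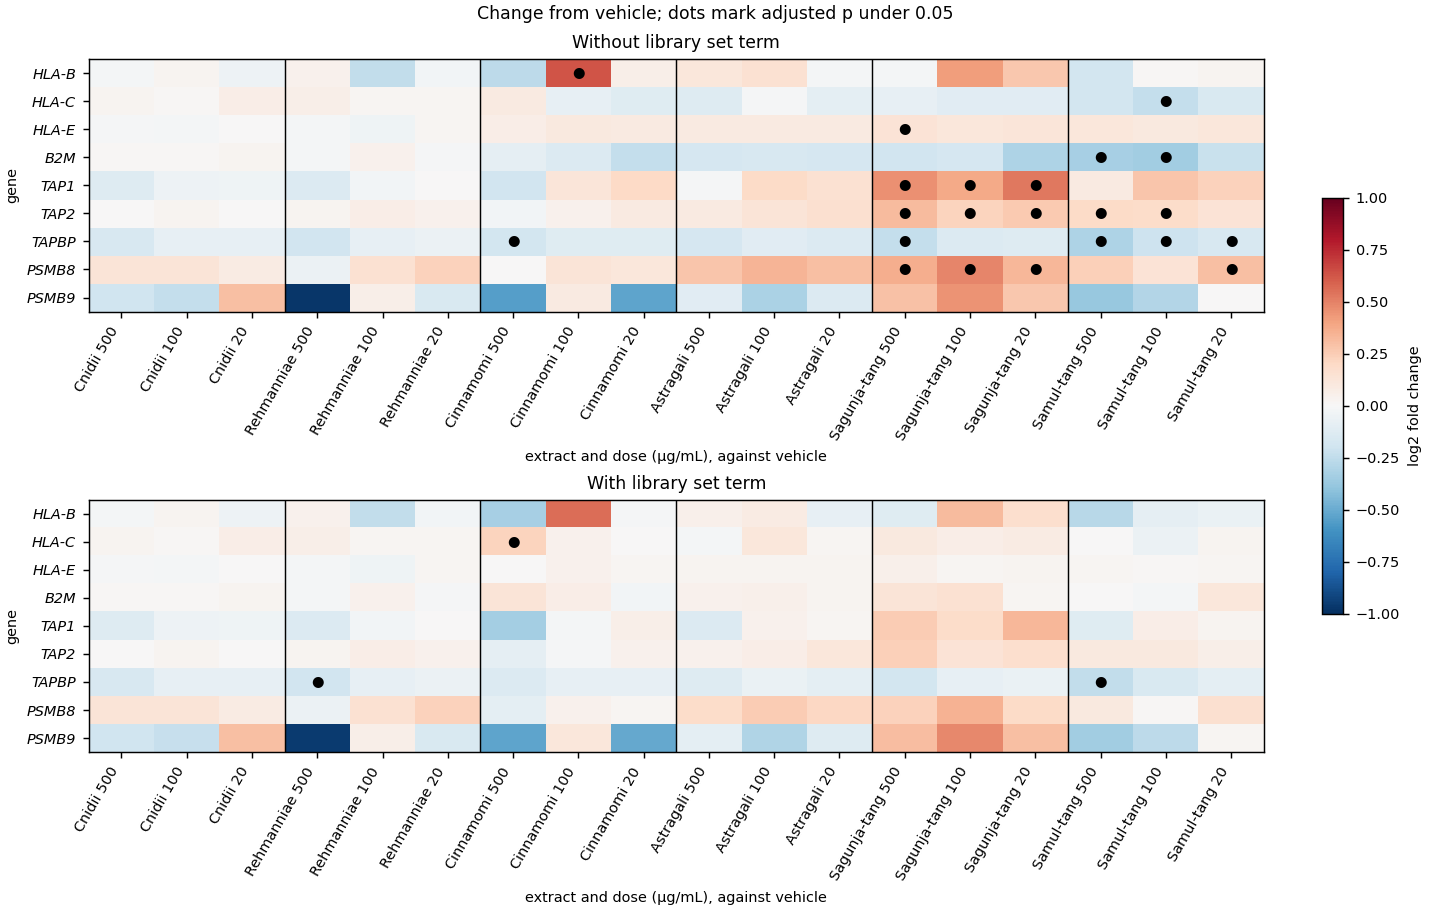
Log2 difference from the vehicle for each member (rows) at each extract and dose (columns), without a library set term (upper map) and with one (lower map), red for higher and blue for lower, with a dot at adjusted p under 0.05. Of the 22 dots in the upper map 20 lie under the 2 formulae. There 10.5 to 21.6% of all genes were called, against 0.147 to 12.7% under the single herbs. The lower map holds 3, for HLA-C with Cinnamomi Cortex at 500 µg/mL and for TAPBP at 500 µg/mL of Rehmanniae Radix Preparata and of Samul-tang. In those comparisons 11.7%, 1.24% and 1.17% of all genes were called. The HLA-C dot was lost when replicate 2 of its group was moved to the first set (adjusted p = 0.11).

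Dose was examined within each extract by setting 500 against 20 µg/mL. No member was called for any of the 6 extracts (edgeR), and DESeq2 called none. All genes called made up 0.397% for Cnidii Rhizoma, 0.171% for Rehmanniae Radix Preparata, 10.1% for Cinnamomi Cortex, 0.0795% for Astragali Radix, 0.00611% for Sagunja-tang and 0.141% for Samul-tang. The members with an unadjusted p under 0.05 numbered 0, 3, 2, 0, 1 and 1 in that order. The nearest to a call was TAP1 with Cinnamomi Cortex, at 5.31, 4.58 and 7.90 CPM at 500 µg/mL and 6.77, 8.31 and 7.87 at 20. The groups overlapped through the 500 µg/mL library at 7.90, and the difference was -0.39 ± 0.14 log2 (adjusted p = 0.056). In the same comparison HLA-C was 0.22 ± 0.08 higher (adjusted p = 0.077). With the set term both were called, TAP1 at -0.40 (adjusted p = 0.025) and HLA-C at 0.22 (adjusted p = 0.017). Neither was called when replicate 2 at 500 µg/mL was moved to the first set, where it lies on the principal component (adjusted p = 0.095 and 0.14). Without replicate 3 of the extract, which holds the 7.90, TAP1 was called at -0.62 (adjusted p = 0.0078).

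Sagunja-tang and Samul-tang lie in 1 library set and can be compared at matched doses without the vehicle. No member was called at 500, 100 or 20 µg/mL by edgeR or DESeq2, where 0.318%, 0.263% and 0.226% of genes were. The numbers of members with an unadjusted p under 0.05 were 3, 3 and 1. TAP1 at 500 µg/mL was 9.60, 8.15 and 9.74 CPM with Sagunja-tang and 6.98, 6.80 and 7.41 with Samul-tang. These groups did not overlap, and the difference was 0.37 ± 0.13 log2 (adjusted p = 0.65). PSMB8 at 100 µg/mL was 7.16, 8.06 and 7.33 CPM against 5.56, 6.62 and 5.64, also without overlap, at 0.34 ± 0.10 (adjusted p = 0.26). At 20 µg/mL TAP1 was 9.93, 9.33 and 9.60 CPM against 7.65, 8.52 and 7.24, again without overlap, at 0.30 ± 0.13 (adjusted p = 1).

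A comparison with the 3 doses averaged was added after these values were seen. No member was called, where 0.654% of genes were, and 5 members had an unadjusted p under 0.05, all higher with Sagunja-tang, while DESeq2 called none. TAP1 was 0.26 ± 0.07 log2 higher (adjusted p = 0.12), TAP2 0.10 ± 0.04 (adjusted p = 0.62), PSMB8 0.16 ± 0.06 (adjusted p = 0.48), PSMB9 0.56 ± 0.18 (adjusted p = 0.29) and HLA-B 0.27 ± 0.11 (adjusted p = 0.88). TAP1 was called in the fit with the set term (0.26, adjusted p = 0.046) in the fit of both formulae alone (0.26, adjusted p = 0.0075) and without the filter on low counts (0.26, adjusted p = 0.0072). B2M differed by 0.07 ± 0.07, HLA-E by 0.02 ± 0.03 and TAPBP by 0.05 ± 0.03. A p that misses the threshold does not show that the formulae acted alike.

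**Figure D4:**
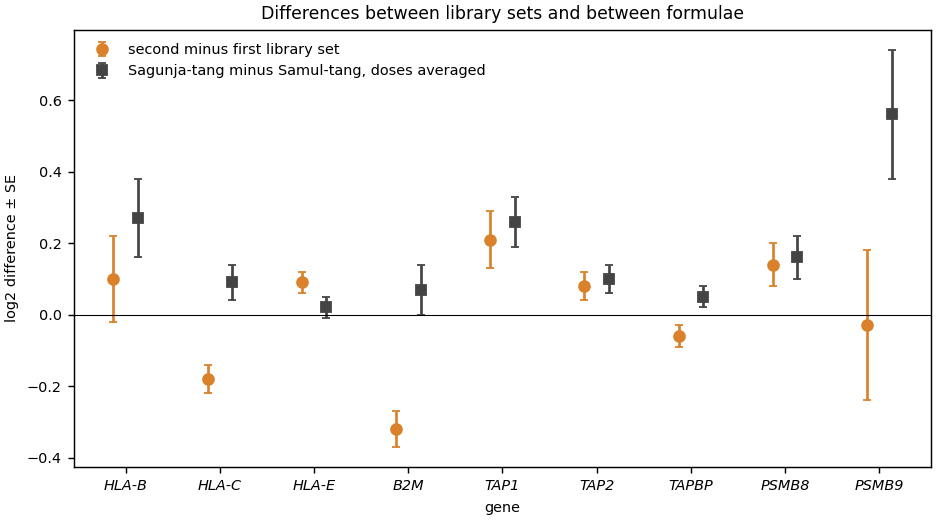
Log2 difference ± SE for each member between the library sets (circles, second minus first) and between the formulae with doses averaged (squares, Sagunja-tang minus Samul-tang). B2M lies at -0.32 between sets and at 0.07 between formulae, and TAP1 lies above 0 in both, at 0.21 and 0.26.

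Paeoniae Radix had a single library at each dose, which belongs to neither set by its code, so its values have no replicate check. B2M was 362, 384 and 342 CPM at 500, 100 and 20 µg/mL, HLA-C 50.3, 51.8 and 43.7, and TAPBP 173, 188 and 147. HLA-E was 56.4, 59.7 and 62.1 CPM and TAP1 6.27, 7.08 and 8.04 at those doses. The 20 µg/mL library thus had the lowest B2M, HLA-C and TAPBP and the highest HLA-E and TAP1 of the 3.

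Other genes of the pathway were read from lists. Of 8 further proteasome parts, 7 were called higher and none lower with Sagunja-tang at 500 µg/mL, where 19.9% of all genes were called, a median of 0.30 log2 beside 0.00 for all genes. They included PSMB10, the remaining immunoproteasome catalytic subunit, at 0.39 ± 0.13 (adjusted p = 0.034), and POMP, a proteasome assembly factor, at 0.31 ± 0.08 (adjusted p = 0.0063). PSMB5 and PSMB6, standard catalytic subunits that immunoproteasome subunits replace, were called higher too, at 0.39 ± 0.09 and 0.33 ± 0.08 (adjusted p = 0.0031 and 0.0034). Samul-tang at 500 µg/mL gave 6 of the 8 higher and none lower, where 18.1% of genes were called, with PSMB10 at 0.38 ± 0.13 (adjusted p = 0.036). Between the formulae at 500 µg/mL PSMB10 differed by 0.00 ± 0.13 and PSMB5 by 0.02 ± 0.09, and no part was called. At 20 µg/mL the counts were 4 higher and 1 lower for Sagunja-tang and 1 higher for Samul-tang, where 18.1% and 10.5% of genes were called. With Cnidii Rhizoma at 500 µg/mL none of the 8 was called. In the fit with the set term 1 of the 8, the proteasome activator subunit PSME2, was called higher with Sagunja-tang at 500 µg/mL, where 2.08% of genes were called, and none with Sagunja-tang at 20 or with Samul-tang at either dose. Without that term a formula and the second library set cannot be told apart.

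Of 20 regulators of class I genes, 4 were called higher with Sagunja-tang at 500 µg/mL and 1 lower, a share near the 19.9% of all genes called. Adding the set term gave 2 higher and 1 lower, where 2.08% of genes were, and NLRC5 and STAT2 were not among them. NLRC5, the transactivator of class I genes, was higher by 1.06 ± 0.32 log2 (adjusted p = 0.02), with vehicle and treated levels of 0.315 ± 0.0219 and 0.665 ± 0.0787 CPM, on only 6 to 8 and 16 to 19 counts. STAT2, a transcription factor of the interferon response, was higher by 0.28 ± 0.10 (adjusted p = 0.033), at 21.0 to 24.2 CPM against 17.6 to 20.0 in the vehicle. IRF9, which acts with STAT2 in the response to interferon, was the one regulator called between the formulae at all 3 doses. It was higher with Sagunja-tang by 0.57 ± 0.11, 0.58 ± 0.11 and 0.51 ± 0.10 log2 at 500, 100 and 20 µg/mL (adjusted p = 0.0013, 0.0015 and 0.007), at 12.7 ± 0.424 against 8.55 ± 1.06 CPM at 500 µg/mL. The vehicle stood between them at 10.4 ± 0.856 CPM, but it lies in the other library set. Only the difference between the formulae was taken within 1 set. With doses averaged the IRF9 difference was 0.55 ± 0.06 (adjusted p = 3.7e-09).

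Cinnamomi Cortex at 500 µg/mL moved genes of peptide loading and trimming that are no members. Of 8 such genes 6 were called, where 12.7% of all genes were. The vehicle and 1 of the 3 treated libraries lie in the first set and the other 2 in the second. Called higher were CANX (0.12 ± 0.03 log2, adjusted p = 0.0062) and CALR (0.12 ± 0.04, adjusted p = 0.038), chaperones that are named here after their values were seen. The 4 called lower were ERAP2 at -0.27 ± 0.05 (adjusted p = 3.0e-05), ERAP1 at -0.22 ± 0.07 (adjusted p = 0.017), LNPEP at -0.20 ± 0.05 (adjusted p = 0.0081) and TAPBPL at -0.41 ± 0.14 (adjusted p = 0.043). ERAP1 and ERAP2 encode the peptidases that trim peptides in the endoplasmic reticulum, and TAPBPL encodes a relative of tapasin. Among regulators IRF9 was lower by 0.44 log2 and IRF1 by 0.25 (adjusted p = 0.0063 and 0.0022), of which IRF1 alone was called with the set term. MICA, a class I-like ligand of natural killer cells, was higher by 0.39 ± 0.08 (adjusted p = 1.9e-04), from 19.7 ± 1.97 to 25.9 ± 0.652 CPM. The same 6 genes and MICA were called with the set term in the same directions, and PDIA3, a disulfide isomerase of peptide loading, was called higher too, where 11.7% of genes were called. Neither formula at 500 µg/mL gave a call in MICA or in the 8 loading and trimming genes. HFE, another class I-like gene, was called higher at 500 µg/mL with Sagunja-tang (0.31 ± 0.10, adjusted p = 0.031) and Samul-tang (0.36 ± 0.10, adjusted p = 0.013). There 19.9% and 18.1% of genes were called. HFE was also called higher at 100 µg/mL with Sagunja-tang and with Samul-tang, where 16.3% and 21.6% of genes were called. FCGRT was called higher with Samul-tang at 100 and at 20 µg/mL, where 21.6% and 10.5% were. These comparisons with the vehicle also compare the library sets.

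Class II genes, which serve presentation to helper T cells, summed to 9.09 to 14.1 CPM over 7 genes. Of these 4 passed the filter and none was called in any comparison, and HLA-DRA had at most 1 count in a library. HLA-G, another class I heavy chain, had at most 2 counts.

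The genes whose pattern was most like the mean of the standardised member levels over the 57 libraries were SLFN5 (Pearson correlation 0.75), IFI6 (0.74), OAS1 (0.72), OAS3 (0.67), LCN2 (0.67), MX1 (0.66), IRF9 (0.66) and OAS2 (0.64). Over the means of the 19 groups these correlations were 0.90, 0.89, 0.93, 0.85, 0.77, 0.89, 0.85 and 0.90. The libraries share set and scaling, and the values are descriptions. The mean standardised level itself was positive in 9 of 9 Sagunja-tang libraries, from 0.43 to 0.99, and ran from -0.72 to 0.21 in those of Samul-tang. In the vehicle it was -0.37, 0.24 and 0.02. This mean joins members that moved in opposite directions. With Sagunja-tang, TAP1, TAP2, PSMB8 and HLA-E lay above every vehicle library in 9 of 9 libraries, and B2M and TAPBP below in 9 of 9. Samul-tang was much alike, with B2M, TAPBP and HLA-C below in 9 of 9, TAP2 and HLA-E above in 8 and PSMB8 in 7. Both formulae lie in the other library set from the vehicle, and the share of all genes without overlap was not computed. The mean therefore does not describe the members as a whole.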

How the data were processed

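Expected counts per gene, estimated by the authors and deposited as 1 table of 60675 genes, were used, of which 8.8% were not whole numbers. The submitters' processing notes name RSEM 1.3.3, STAR 2.7.3a, Trim Galore 0.6.5, FastQC 0.11.9 and the build GRCh38, without their roles or settings. RNA had an integrity number above 7 and was made into strand-marking libraries read in pairs of 100 bases, per the labels. The table also held 213 columns of other samples, which were not used. The 9 members and all gene lists were chosen with earlier results of these data known.

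Expected counts were rounded and tested with edgeR 4.0.16 (R 4.3.3, limma 3.58.1), using the robust quasi-likelihood fit, TMM factors (0.938 to 1.043) and a minimum count of 10 by filterByExpr, which kept 16356 genes. The fit held 57 libraries in 19 groups. Paeoniae Radix, with 1 library a dose, was left out of it. Standard errors were the log2 difference divided by the square root of F. P-values were two-sided, adjusted by Benjamini-Hochberg over all genes, separately for the 28 comparisons, with the call threshold at an adjusted p of 0.05. CPM values used TMM-scaled library totals, and a total of 20459346 to 36253747 counts limits precision mainly for PSMB9, HLA-B, TAP1 and PSMB8. Alternatives were RLE factors, no filter, the compared groups alone, DESeq2 1.42.0, a replicate block, a library set term, each library set alone and leaving out each replicate. The list genes named were the called genes with the largest log2 difference, at most 4 a list and comparison, regulators as needed, and the 8 genes most correlated with the members' mean standardised level. A gene of the regulator list is counted but not reported here by name.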

Additional observations from a re-analysis of the deposited data

How the results depend on the processing

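With the set term and replicate 2 of Cinnamomi Cortex at 500 µg/mL moved to the first set, chosen for these comparisons after seeing the data, the B2M differences of Samul-tang at 500 and 100 µg/mL lay above 0, at 0.04 and 0.01, without a call. No other called member changed sign under any alternative run. Over the 3 doses, the calls against the vehicle were 11 for Sagunja-tang and 9 for Samul-tang. The compared groups alone gave 16 and 10, DESeq2 14 and 8, no filter 12 and 7 and RLE factors 12 and 8. The library set term left 0 and 1, also with that library moved, and leaving out 1 replicate gave 5 to 11 and 2 to 7. Sagunja-tang kept 5 calls without its replicate 3 and 6 without vehicle replicate 3, and Samul-tang had 3 and 5 without its replicates 1 and 2 and 4 and 2 without vehicle replicates 2 and 3. The 2 calls for Cinnamomi Cortex were 0 with the compared groups alone, 1 with DESeq2 (which gave 5 of the 27 values no adjusted p), 1 with the set term (HLA-C, or TAPBP with the library moved), 3 without the filter, and 0 to 2 on leaving out a replicate. The 0 calls for Astragali Radix were 1 with DESeq2, 3 without the filter, 1 with RLE factors and 0 to 8 on leaving out a replicate, the 8 without its replicate 1. The 0 calls for Rehmanniae Radix Preparata were 1 with DESeq2, 1 with the first library set alone and 1 with the set term, the library moved or not, and the 0 for Cnidii Rhizoma were 1 with the compared groups alone. For Cinnamomi Cortex at 500 against 20 µg/mL, the 0 calls were 2 with the set term, 2 without the filter and 0 to 1 on leaving out a replicate. For the formulae averaged over doses, an added comparison, 0 became 1 with the compared groups alone, with the set term and without the filter. The remaining comparisons stayed at 0 under every alternative run. The causes of these changes were not tested. Apart from the set term, the share of all genes called under each alternative, the replicate block below included, is not given here. A change in these counts therefore cannot be read as particular to the members.

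The replicate numbers share no stated culture or day, and same-numbered libraries had correlations of their deviations from -0.24 to 0.47 between extracts. A replicate block gave 14 calls for Sagunja-tang, 9 for Samul-tang, 2 for Cinnamomi Cortex, 2 for Astragali Radix, 1 for Rehmanniae Radix Preparata and 1 for Cinnamomi Cortex at 500 against 20 µg/mL, with 0 elsewhere.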
